A study of Mus musculus with 6 samples.

Results

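The genes described here are the 8 Smads and the 2 receptors for TGF-beta itself, *Tgfbr1* and *Tgfbr2*, in mice that overexpressed the human long noncoding RNA *AP1AR-DT*. The 10 genes were taken by their symbols from a count table of 52390 genes, and all 10 were among the 21844 genes with enough reads to be tested. *Smad3* was singled out for its difference between the groups in these same libraries, and the other 9 were added as its family and its receptors. The set was thus chosen by the *Smad3* difference between the groups. The differences of the 10 genes between the groups are therefore a description. Where a P-value or a call of theirs is printed below, it comes from the values that chose the set and stands as no test of it.

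RNA-seq libraries were made from brain tissue of 3 control mice and 3 *AP1AR-DT* OE mice. All were male C57BL/6 mice that had an injection into the medial prefrontal cortex at 8 weeks of age, per the study's methods. The control mice, labelled wild type, received an empty adeno-associated virus (AAV) vector. The *AP1AR-DT* OE mice received a recombinant AAV that carried *AP1AR-DT*, named AC109347.1 in the labels, under the neuron-specific human synapsin I promoter. The vector also carried a green fluorescent reporter under the CMV promoter. The labels name the tissue only as brain. The paper states that the RNA came from the medial prefrontal cortex, and its methods name cortical tissue. The human transcript itself was not analysed here, so the overexpression was not checked in these counts. The table's columns number the overexpressing mice otherwise than the labels do, so they are called OE A, OE B and OE C here.

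TGF-beta binds a complex of the type II receptor TGFBR2 and the type I receptor TGFBR1, which phosphorylates the receptor-regulated Smads SMAD2 and SMAD3. Bone morphogenetic proteins (BMPs) act through related receptors on SMAD1, SMAD5 and SMAD9. Either kind joins the common SMAD4 and enters the nucleus to regulate transcription, and the inhibitory SMAD6 and SMAD7 limit the signal. In the brain these pathways are known for roles in neuronal differentiation and survival, synapse formation, microglia and blood vessels. Signalling itself runs through phosphorylation, which RNA counts do not measure.

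RefSeq promoter windows of GRCm38.p6, from 250 bases before to 50 bases after a gene's start, were available for 7 of the 10 genes, in 10 windows. Their GC content ranged from 52% to 74.7%, and the median of all 32851 windows was 52.7%. They were searched on both strands for the Smad-binding palindrome GTCTAGAC, held by 0.213% of all windows, and for the shorter Smad-binding letters CAGAC (49.6% of windows) and GGCGCC (11.9%). The letters GCGCANGCG, the core bound by the transcription factor NRF1, were found in 6.25% of windows. A match of one motif was counted whether or not it overlapped another. The windows of 3 genes are printed 5′ to 3′ below their positions. The window of *Smad3*, chr9:63757945-63758244 on the minus strand, is shown because the group of genes was built around *Smad3*, and it held none of the 4 motifs. The window of *Smad6*, chr9:64022010-64022309 on the minus strand, was the only one of the 10 with the palindrome, shown in capitals. The window of *Smad5*, the BMP-branch gene that varied most between mice, is chr13:56702760-56703059 on the plus strand, and its capitals mark the NRF1 core, which reads the same on both strands and so counted as 2 matches.
Smad3: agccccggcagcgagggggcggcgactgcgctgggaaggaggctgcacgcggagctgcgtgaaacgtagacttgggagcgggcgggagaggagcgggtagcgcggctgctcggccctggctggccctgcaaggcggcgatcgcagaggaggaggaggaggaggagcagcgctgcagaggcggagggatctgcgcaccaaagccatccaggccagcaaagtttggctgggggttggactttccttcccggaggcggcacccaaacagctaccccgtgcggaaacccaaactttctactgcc
Smad6: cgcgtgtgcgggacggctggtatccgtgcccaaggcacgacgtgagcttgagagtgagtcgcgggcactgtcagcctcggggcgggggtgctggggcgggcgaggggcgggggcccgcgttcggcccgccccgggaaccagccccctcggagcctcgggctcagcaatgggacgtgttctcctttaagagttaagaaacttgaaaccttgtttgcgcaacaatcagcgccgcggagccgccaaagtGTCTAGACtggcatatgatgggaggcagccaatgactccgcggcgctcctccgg
Smad5: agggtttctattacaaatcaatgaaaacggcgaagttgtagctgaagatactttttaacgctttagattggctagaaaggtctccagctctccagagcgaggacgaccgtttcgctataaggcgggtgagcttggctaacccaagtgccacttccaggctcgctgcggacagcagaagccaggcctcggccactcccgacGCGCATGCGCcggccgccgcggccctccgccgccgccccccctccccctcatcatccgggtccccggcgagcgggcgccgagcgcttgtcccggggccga
The second of the 3 *Smad5* windows overlapped the first and held the same NRF1 letters. CAGAC was found in 3 windows (1 each of *Smad5*, *Tgfbr1* and *Tgfbr2*) and GGCGCC in 4 (2 of *Smad5*, and 1 each of *Smad9* and *Tgfbr1*). These matches are letters in a window, and binding was not measured.

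The libraries held between 42061721 and 54668294 counts, with the 3 controls below the 3 *AP1AR-DT* OE mice. Counts of the mitochondrial genome were 7.2% to 9.86% in control mice and 5.75% to 6.8% in *AP1AR-DT* OE mice. The markers of brain regions and cell types varied widely between mice of the same group. Of 12 marker lists, none had a gene at 0 in every library. *Slc17a7*, a marker of cortical excitatory neurons, had 28.2, 3.86 and 233 normalized CPM (counts scaled to the size of each library) in the control mice and 231, 463 and 87.2 in the *AP1AR-DT* OE mice. Control 3 stood apart in markers of the choroid plexus, with 3948 CPM summed over 8 genes and 51.6 to 74.3 in the other mice. It was also the highest in 6 markers of the thalamus (664 CPM, and 137 to 183 in the others) and in 6 of oligodendrocytes (10643 CPM, and 5048 to 6430 in the others). Control 2 had 591 CPM of 6 hypothalamic markers, with 73.3 in control 3 and 3.88 to 25.4 in the others. Of the 6, *Avp*, *Oxt* and *Trh* were highest in control 2, and *Hcrt*, *Pmch* and *Agrp* in control 3. OE A had 1839 CPM of 6 striatal markers, with 270 to 993 in the others. The summed markers of GABA neurons ranged from 1011 to 2085 CPM, of astrocytes from 4002 to 5012, and of meningeal fibroblasts from 69.2 to 89.9. Microglial markers summed to 275 to 331 CPM in control and 281 to 390 in *AP1AR-DT* OE mice, endothelial markers to 66.7 to 75.7 and 80.2 to 115, and pericyte markers to 75 to 85.7 and 81.9 to 110. In bulk tissue, fewer cells of a type and less RNA per cell cannot be told apart. Whether the brain region taken differed between mice was not tested.

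*Smad3* had the largest difference between groups of the 10 genes, with a higher mean in *AP1AR-DT* OE mice, and *Smad5* and *Smad2* followed with lower means. The other 7 genes had an absolute log2 fold change (log2FC, *AP1AR-DT* OE over control) under 0.2. A differentially expressed gene (DEG) was one with P under 0.05 in edgeR's quasi-likelihood test and an absolute log2FC above 0.32, the thresholds the study used. By this rule 12.2% of all tested genes were DEGs (5.1% higher and 7.15% lower in *AP1AR-DT* OE mice), and 1 of the 10 genes was, *Smad3*, the gene the set was built around, so nothing is read from this count. After Benjamini-Hochberg adjustment over all tested genes, edgeR gave 0.0275% of them an adjusted P under 0.05, and 0 of the 10, of which 1 had an unadjusted P under 0.05. With DESeq2, 2 of the 10 passed the DEG thresholds and 0 had an adjusted P under 0.05. As a description only, the gene just inside the P threshold was *Smad3*, with an unadjusted edgeR value of 0.0288, and the one just outside was *Smad2*, with 0.0504. The groups did not overlap in 22.4% of all tested genes and in 1 of the 10, *Smad2*. Of the 10 genes, 2 had a log2FC above 0 and 8 below. Their median log2FC was -0.10 and that of all tested genes was -0.01, and their median absolute log2FC was 0.149 against 0.241.

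**Figure D1:**
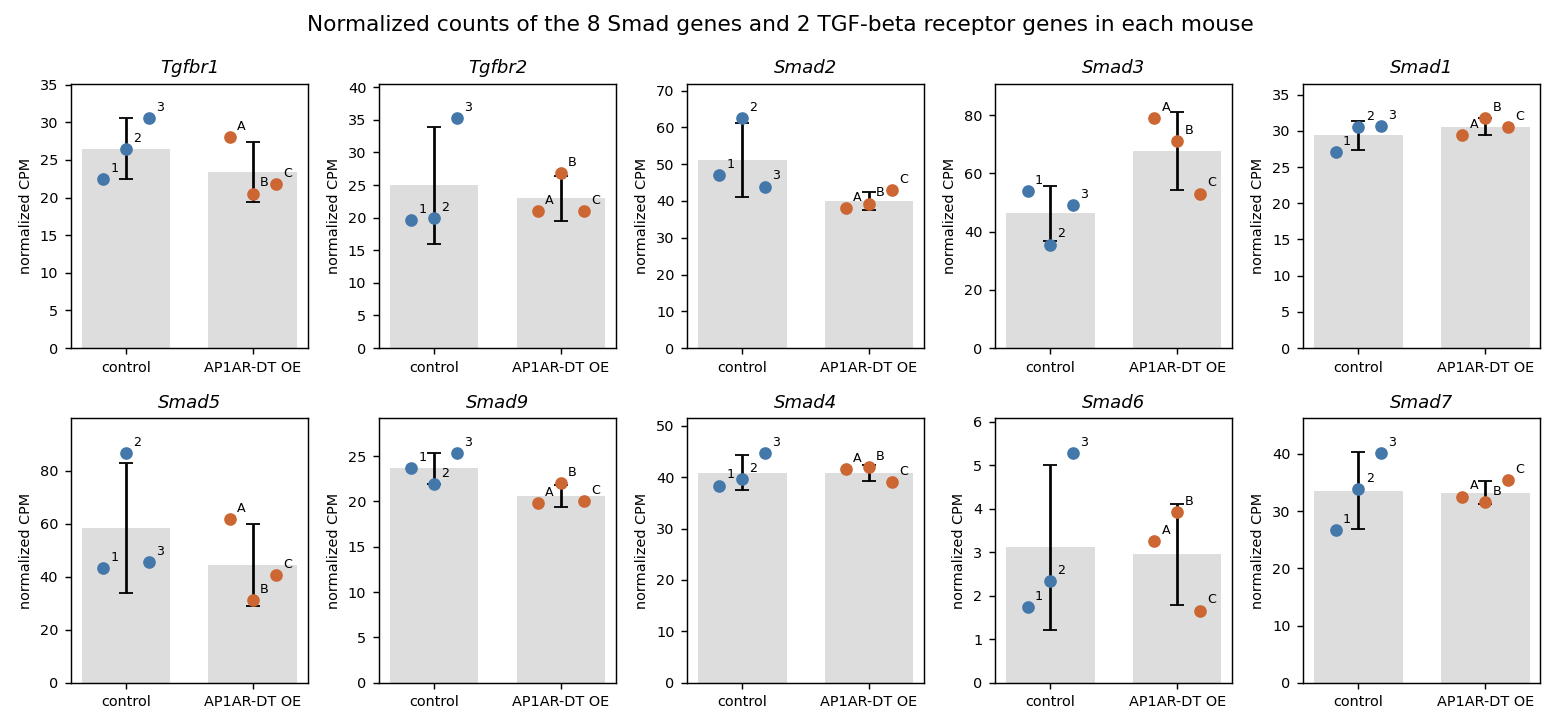
Normalized CPM of the 10 genes in each mouse, with control mice in blue and *AP1AR-DT* OE mice in orange, grey bars for the mean of 3 mice, error bars for the SD, and the mouse written beside each point. *Smad2* is the gene whose points do not overlap between groups, and for *Smad3* OE C lies at 53.1 CPM, between control 3 and control 1.

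*Tgfbr1*, the type I receptor kinase (chr4:47353222-47414931, plus strand, GRCm38), had 22.5, 26.5 and 30.6 CPM in control mice and 28, 20.5 and 21.7 CPM in OE A, OE B and OE C. The groups overlapped, with means of 26.5 ± 4.04 and 23.4 ± 4.01 CPM (SD, n = 3 each), and the log2FC was -0.18 (SE 0.169). The longest *Tgfbr1* transcript is 41% GC, in the lowest decile of tested genes, where the median log2FC was -0.30. After a correction by that percentage its log2FC was 0.08, so the sign depended on this step, and with the mean over its transcripts, 48%, it was -0.10. *Tgfbr2*, the type II receptor that binds TGF-beta first (chr9:116084293-116175360, minus strand), had 19.6, 19.9 and 35.3 CPM in control mice and 20.9, 26.9 and 21 CPM in OE A, OE B and OE C. Control 3 was the highest and the other 5 mice lay within 19.6 to 26.9 CPM, with means of 24.9 ± 8.94 and 22.9 ± 3.41 CPM (SD, n = 3 each). The *Tgfbr2* log2FC was -0.12 (SE 0.25), and 0.23 without control 3, the mouse that stood apart in choroid plexus and thalamic markers.

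*Smad3*, a receptor-regulated Smad of the TGF-beta branch that binds DNA directly (chr9:63646767-63757994, minus strand), had 54, 35.6 and 49.2 CPM in control mice and 79, 71.2 and 53.1 CPM in OE A, OE B and OE C. OE A and OE B were above every control mouse, control 2 was the lowest, and OE C was below control 1. The means were 46.3 ± 9.55 and 67.7 ± 13.3 CPM (SD, n = 3 each), and the log2FC was 0.55 (SE 0.201). Leaving out 1 mouse at a time gave a log2FC of 0.40 without control 2 to 0.71 without OE C. Without control 2, without OE A or without OE B, *Smad3* no longer passed the DEG thresholds. Its longest transcript is 53.1% GC, in a decile of genes with a median log2FC of 0.08, and its log2FC was 0.45 corrected for that percentage and 0.43 with the mean GC content of its transcripts, where it missed the thresholds. The highest and lowest *Smad3* levels, OE A and control 2, differed 2.22-fold. The excitatory neuron list, 6 genes with *Slc17a7* among them, was also lowest in control 2 and above its mean in OE A and OE B, at -1.56, 0.85 and 1.43 on the log2 scale around its mean. It was at -0.66, 0.71 and -0.77 in control 1, control 3 and OE C, where the *Smad3* levels lay close together at 49.2 to 54 CPM. The sum of the microglial markers was highest in OE A, as was *Smad3*, but *P2ry12*, one of them, was not, at 27.6 CPM in OE A and 27.8 to 34.1 CPM in control mice. The part of these markers in the *Smad3* values was not tested.

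*Smad2*, the other TGF-beta branch Smad (chr18:76241580-76310963, plus strand), had 47, 62.5 and 43.9 CPM in control mice and 38.1, 39.3 and 42.9 CPM in OE A, OE B and OE C. Every *AP1AR-DT* OE mouse was below every control mouse, and OE C and control 3 were 42.9 and 43.9 CPM. The means were 51.1 ± 9.98 and 40.1 ± 2.47 CPM (SD, n = 3 each), and the log2FC was -0.35 (SE 0.149). Without control 2, the highest mouse, it was -0.17, and corrected for the 44.9% GC of its longest transcript it was -0.21. On the scale of CPM per kb of longest transcript, the ratio of *Smad3* to *Smad2* was 1.83, 0.905 and 1.78 in control mice and 3.29, 2.88 and 1.97 in *AP1AR-DT* OE mice. This ratio pairs the gene that chose the set with the gene whose groups did not overlap, so it is a description only. It did not overlap between the groups, and its closest values were 1.83 in control 1 and 1.97 in OE C. Its means were 1.5 ± 0.52 and 2.71 ± 0.678 (SD, n = 3 each). *Smad3* thus made up 64.6%, 47.5% and 64% of the summed per-kb level of *Smad2* and *Smad3* in control mice, and 76.7%, 74.2% and 66.3% in *AP1AR-DT* OE mice. The sum itself overlapped between the groups, at 15.4 ± 0.889 and 18.3 ± 2.31 CPM per kb (SD, n = 3 each). These per-kb values depend on the transcript length used. By CPM alone the control mean was 51.1 for *Smad2* and 46.3 for *Smad3*, and the *AP1AR-DT* OE means were 40.1 and 67.7.

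*Smad1*, of the BMP branch (chr8:79338395-79399518, minus strand), had 27, 30.5 and 30.6 CPM in control mice and 29.4, 31.8 and 30.6 CPM in OE A, OE B and OE C. It was the steadiest of the 10 genes, with a log2 SD within groups of 0.0803. Of the tested genes of similar level, 10.2% had a smaller SD. Its means were 29.4 ± 2.03 and 30.6 ± 1.16 CPM (SD, n = 3 each), with a log2FC of 0.06 (SE 0.1) and a 95% interval of -0.18 to 0.29. *Smad5*, which carries the same BMP signals (chr13:56703010-56742377, plus strand), had 43.1, 86.7 and 45.6 CPM in control mice and 61.6, 31.2 and 40.6 CPM in OE A, OE B and OE C. Control 2 was the highest and OE B the lowest, 2.78-fold apart, and the groups overlapped. The log2 SD of *Smad5* within groups was 0.523, and 96.2% of the tested genes of similar level had a smaller one. The means were 58.5 ± 24.5 and 44.5 ± 15.6 CPM (SD, n = 3 each), and the log2FC of -0.40 (SE 0.34) became 0.01 without control 2. *Smad9* (chr3:54755582-54801257, plus strand) had 23.6, 21.9 and 25.3 CPM in control mice and 19.8, 22 and 20 CPM in OE A, OE B and OE C. OE A and OE C were below every control mouse, while OE B at 22 CPM was just above control 2 at 21.9 CPM, so the groups overlapped. The means were 23.6 ± 1.71 and 20.6 ± 1.24 CPM (SD, n = 3 each), and the log2FC was -0.20 (SE 0.111). Summed per kb, *Smad1*, *Smad5* and *Smad9* reached 21.1 ± 3.77 CPM per kb in control and 18.7 ± 1.89 in *AP1AR-DT* OE mice (SD, n = 3 each), and the groups overlapped.

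*Smad4*, the partner of every receptor-regulated Smad (chr18:73639009-73703780, minus strand), had 38.3, 39.5 and 44.7 CPM in control mice and 41.5, 42 and 39 CPM in OE A, OE B and OE C. The means of 40.9 ± 3.39 and 40.8 ± 1.62 CPM (SD, n = 3 each) gave a log2FC of -0.0019 (SE 0.101), with a 95% interval of -0.24 to 0.24. A pseudogene annotated on the opposite strand inside *Smad4* had a mean of 0.5 counts. The summed per-kb level of the 5 receptor-regulated Smads over that of *Smad4* was 3.04 ± 0.394 in control and 3.06 ± 0.249 in *AP1AR-DT* OE mice (SD, n = 3 each). The control range of this ratio, 2.64 to 3.43, held all 3 *AP1AR-DT* OE mice.

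*Smad7*, which blocks the TGF-beta receptor and is itself induced by TGF-beta (chr18:75367529-75395935, plus strand), had 26.6, 33.9 and 40.2 CPM in control mice and 32.5, 31.6 and 35.5 CPM in OE A, OE B and OE C. The control mice spanned the *AP1AR-DT* OE mice, with means of 33.6 ± 6.77 and 33.2 ± 2.02 CPM (SD, n = 3 each) and a log2FC of -0.02 (SE 0.158). *Smad6*, which acts mainly against BMP signals, lies 195 kb from *Smad3* on the same strand (chr9:63953076-64022059). It had the fewest reads of the 10 genes, from 71 counts in control 1 to 264 in control 3. Its levels were 1.75, 2.33 and 5.29 CPM in control mice and 3.26, 3.93 and 1.66 CPM in OE A, OE B and OE C. Control 3 was the highest and OE C the lowest, the means were 3.12 ± 1.9 and 2.95 ± 1.17 CPM (SD, n = 3 each), and the log2FC was -0.08 (SE 0.49). Without control 3 the log2FC of *Smad6* was 0.55 and that of *Smad7* 0.15. Without OE C that of *Smad6* was 0.21, so the sign of *Smad6* depended on single mice. The per-kb ratio of *Smad7* to *Smad6* was 10.6, 10.1 and 5.28 in control mice and 6.92, 5.58 and 14.9 in *AP1AR-DT* OE mice, with no separation of the groups.

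**Figure D2:**
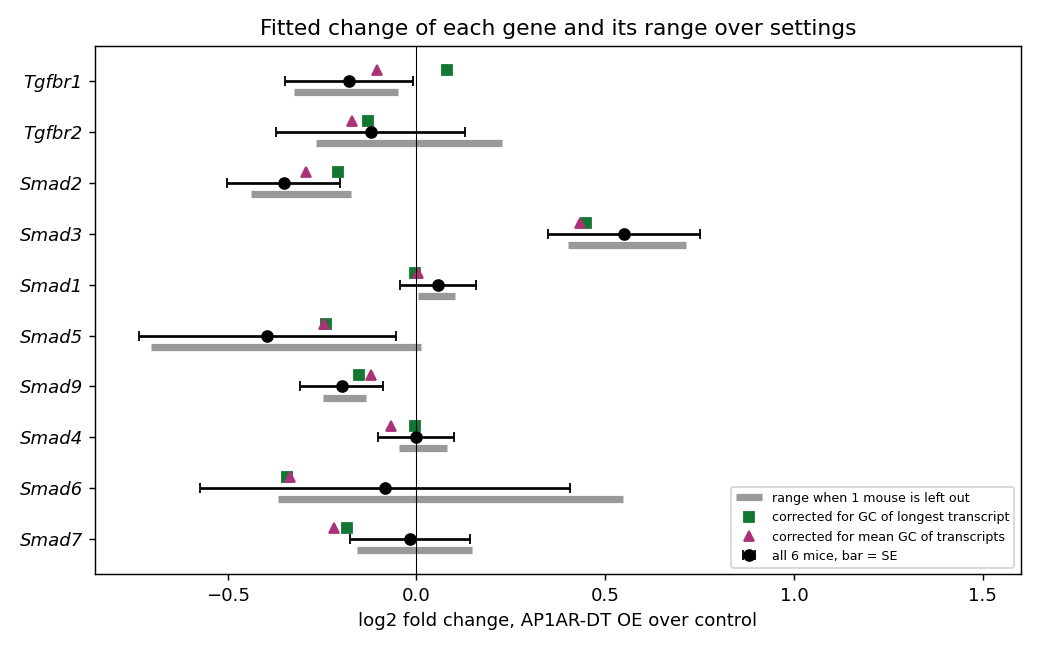
Log2FC of the 10 genes (horizontal axis), with points and bars for the fit to all 6 mice and its SE, grey bars for the range when 1 mouse is left out, and squares and triangles for the 2 corrections for GC content. *Smad3* stays above 0, *Smad2* and *Smad9* stay below 0, and the grey bars of *Tgfbr2*, *Smad5*, *Smad4*, *Smad6* and *Smad7* cross 0.

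**Figure D3:**
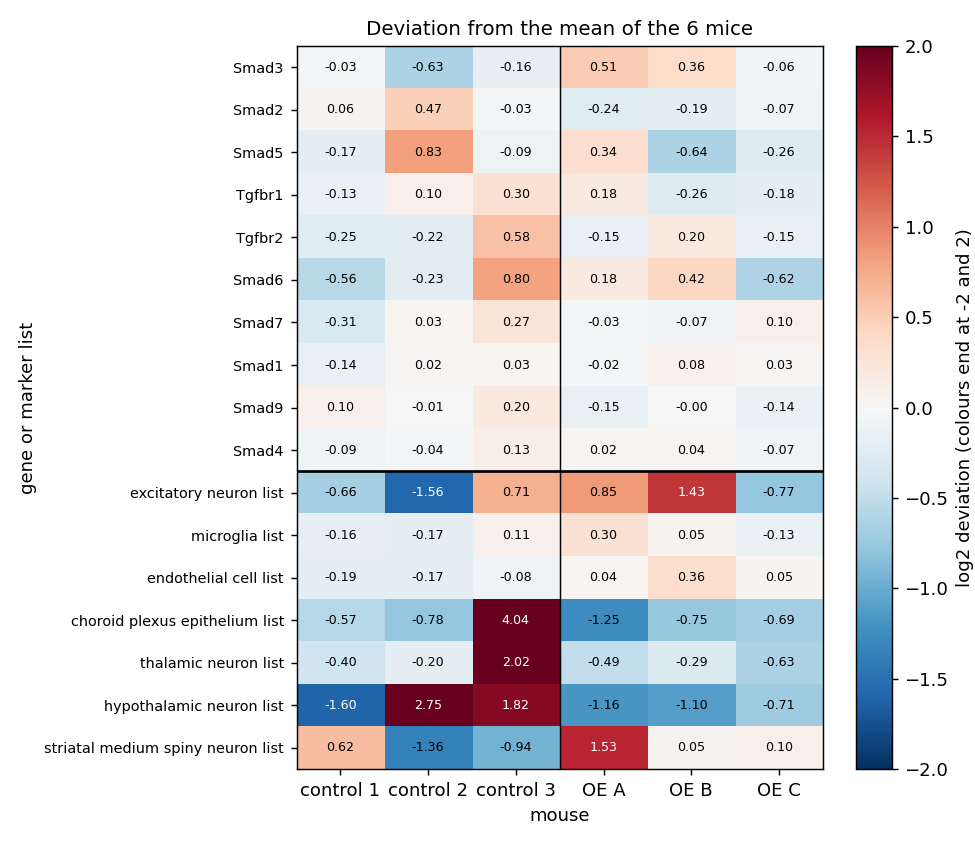
Log2 deviation of each of the 10 genes (CPM plus 0.5) and of 7 marker lists from its mean over the 6 mice, written in each cell, with red above and blue below the mean. *Tgfbr1*, *Tgfbr2*, *Smad6*, *Smad7*, *Smad9* and *Smad4* are highest in control 3, where the choroid plexus list is at 4.04. *Smad2* and *Smad5* are highest in control 2, where the hypothalamic list is at 2.75, and that list is at 1.82 in control 3.

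Levels between genes were compared as CPM per kb of the longest transcript, over all 6 mice. Which transcripts were present was not determined, so the order depends on the length used. *Smad4* was the highest at 12.1 and *Smad3* next at 11.2 CPM per kb, followed by *Smad1* at 7.94, *Smad5* at 7.82 and *Smad7* at 7.8. *Smad2* was at 5.64, *Tgfbr1* at 4.34, *Smad9* at 4.12, *Tgfbr2* at 2.96 and *Smad6* at 1.02 CPM per kb, 11.8-fold below *Smad4*. The first places depended on the group. *Smad4* was at 12.1 ± 1 CPM per kb in control and 12.1 ± 0.479 in *AP1AR-DT* OE mice, and *Smad3* at 9.09 ± 1.88 and 13.3 ± 2.61 (SD, n = 3 each), so *Smad3* had the higher mean in *AP1AR-DT* OE mice. *Smad5* was above *Smad1* in the control means and below it in the *AP1AR-DT* OE means. The ranges of neighbours in this order overlapped, except for *Tgfbr2* and *Smad6*. *Smad4* was above *Smad3* in 4 of the 6 mice, and *Smad5* above *Smad7* in 3 of the 6. In all 6 mice *Smad7* was above *Smad2*, *Smad9* above *Tgfbr2*, and *Tgfbr2* above *Smad6*. Summed over the 10 genes, the level was 65.1 ± 5.36 CPM per kb in control and 64.7 ± 4.54 in *AP1AR-DT* OE mice (SD, n = 3 each), and the groups overlapped.

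**Figure D4:**
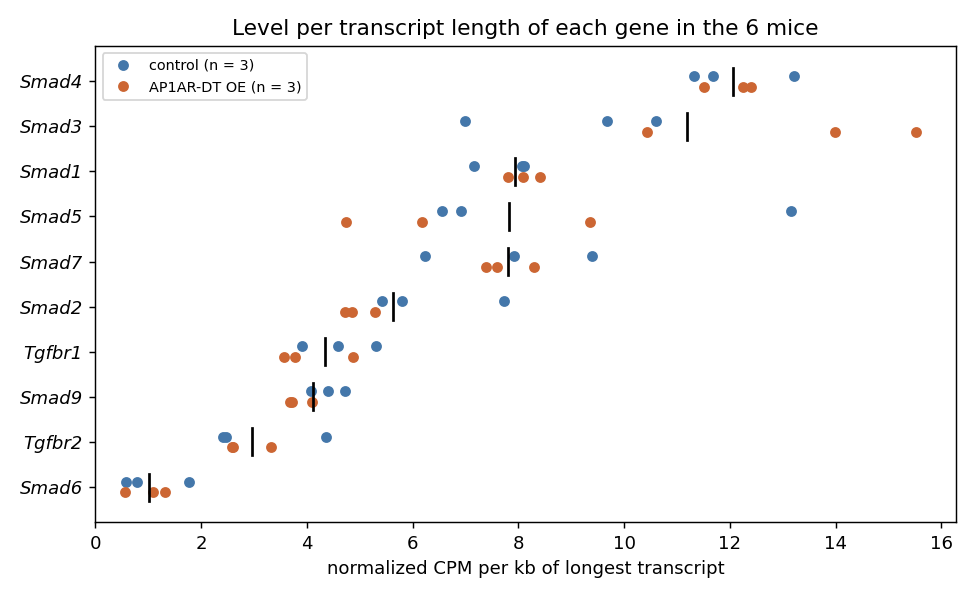
Normalized CPM per kb of longest transcript (horizontal axis) of the 10 genes in the 6 mice, with control mice in blue, *AP1AR-DT* OE mice in orange and a black line for the mean. *Smad4* and *Smad3* lead with means over all mice of 12.1 and 11.2, and *Smad6* is lowest at 1.02.

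The pattern of *Smad3* over the 6 mice was compared with that of every other tested gene by the root mean square difference of the centred log2 levels. The 5 nearest genes were *Snx32* (0.0538), *C1qc* (0.0639), *Gm33027* (0.064), *Pitpnm2* (0.0673) and *Lin37* (0.0714). *C1qc*, a complement subunit made by microglia, had 46.6, 34.4 and 47.1 CPM in control mice and 68.2, 64 and 47.7 CPM in OE A, OE B and OE C. *Pitpnm2* had 182, 125 and 164 CPM in control mice and 274, 231 and 161 CPM in OE A, OE B and OE C. Like *Smad3*, both were lowest in control 2 and highest in OE A. They were picked for a pattern near that of *Smad3*, so this match follows from the choice. With 6 mice such likeness is a description, since the genes share the same libraries.

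Of 98 other genes of the TGF-beta and BMP pathway, listed by role, 94 were tested and 17 were DEGs, 8 higher and 9 lower in *AP1AR-DT* OE mice, where 12.2% of all tested genes were DEGs. None of the 94 had an adjusted P under 0.05 in edgeR, where 22 had an unadjusted P under 0.05 and the lowest adjusted P was 0.295. In DESeq2 5 had an adjusted P under 0.05 (*Acvr1b*, *Ccn2*, *Cdkn1a*, *Inha* and *Itgb8*). The share of all tested genes is not given here for unadjusted edgeR P or for adjusted DESeq2 P. Nothing is therefore read from the 22 or the 5. The groups did not overlap for 28 of the 94, and for 22.4% of all tested genes. The median log2FC of the 94 genes was 0.05, and that of all tested genes was -0.01. Below, rose and fell refer to the DEG thresholds in edgeR, and the adjusted P of the 17 genes lay between 0.295 and 0.319.

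Among 15 tested ligands, 1 rose and 2 fell. *Inha*, the alpha subunit of inhibin, rose, with 21.1, 20.8 and 14.6 CPM in control mice and 30.1, 27.2 and 27.3 CPM in OE A, OE B and OE C (log2FC 0.58, SE 0.163). *Tgfb2*, a ligand of TGFBR1 and TGFBR2, fell, from 18.7, 23.8 and 41.8 CPM in control mice to 14.2, 16.3 and 18.1 CPM (log2FC -0.80, SE 0.292). Control 3 was the highest in *Tgfb2*, OE C lay just below control 1, and without control 3 *Tgfb2* had a log2FC of -0.38. *Tgfb2* was not a DEG without control 3, OE A or OE B. *Inhbb*, an activin and inhibin beta subunit, fell with a log2FC of -0.40 (SE 0.158), and was not a DEG without control 2, control 3, OE A or OE B. *Tgfb1* had a log2FC of 0.50 and was not a DEG.

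Among 14 tested receptors and co-receptors other than *Tgfbr1* and *Tgfbr2*, 3 rose and 1 fell. *Bmpr1a*, a type I BMP receptor, fell most, from 64.4, 69.3 and 67.1 CPM in control mice to 9.88, 45.2 and 12.5 CPM in OE A, OE B and OE C (log2FC -1.57, SE 0.547). The control mice lay close together and the *AP1AR-DT* OE mice did not, with OE B well above the other two. Without OE B the *Bmpr1a* log2FC was -2.58, and *Bmpr1a* was not a DEG without control 2, OE A or OE C. *Acvr1b*, the type I receptor for activin, rose, with 125, 125 and 104 CPM in control mice and 155, 162 and 152 CPM in *AP1AR-DT* OE mice (log2FC 0.40, SE 0.102). *Acvrl1* and *Eng*, a receptor and co-receptor best known in blood vessels, rose with log2FC of 0.47 and 0.34, which were 0.30 and 0.16 and no longer DEGs after the same correction for GC as above. The sum of the 6 endothelial markers was also higher in each *AP1AR-DT* OE mouse, at 80.2 to 115 CPM, than in the control mice, at 66.7 to 75.7 CPM. Of the 6, *Cldn5* alone did not overlap between the groups, and *Kdr*, *Flt1*, *Cdh5*, *Tek* and *Pecam1* did. Their part in the values of *Acvrl1* and *Eng* was not tested.

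Of 19 genes of extracellular activation and antagonism, *Itgb8*, an integrin subunit that helps to activate latent TGF-beta, fell, and none rose. It had 76.5, 88.3 and 103 CPM in control mice and 61.7, 48.1 and 66.1 CPM in OE A, OE B and OE C (log2FC -0.60, SE 0.158). Of 17 regulators of Smads, *Smurf1*, a ubiquitin ligase for Smads and receptors, rose with a log2FC of 0.32. *Zfyve16*, an endosomal Smad anchor, and *Usp9x*, a deubiquitinase that acts on SMAD4, both fell with a log2FC of -0.52. In *Usp9x* 6.06% of 100-base stretches also occur in other genes, and none did in the 8 Smads, *Tgfbr1* or *Tgfbr2*. Of 7 tested nuclear partners, *Zeb2* (log2FC -0.57), a repressor that binds Smads, and *Sp1* (log2FC -0.33) fell. Corrected for the GC of longest transcripts, the log2FC was -0.26 for *Zfyve16*, -0.24 for *Usp9x*, 0.17 for *Smurf1*, -0.31 for *Zeb2* and -0.14 for *Sp1*, and none of these was a DEG.

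Of 17 genes known as targets of TGF-beta or BMP signals, 2 rose and none fell, a share close to the 12.2% of DEGs among all tested genes. *Ccn2*, a matrix protein induced by TGF-beta, rose, with 5.36, 2.69 and 4.82 CPM in control mice and 14.7, 21 and 9.57 CPM in OE A, OE B and OE C (log2FC 1.82, SE 0.361). *Cdkn1a*, an inhibitor of the cell cycle, rose, with 4.87, 2.29 and 3.8 CPM in control mice and 17.1, 5.79 and 6.61 CPM in *AP1AR-DT* OE mice (log2FC 1.43, SE 0.478). OE B was the highest in *Ccn2* and OE A in *Cdkn1a*, and both genes were lowest in control 2. Without OE A the log2FC of *Cdkn1a* was 0.77, and *Cdkn1a* was not a DEG without OE A or control 2. The other targets were not DEGs, among them *Id1* (log2FC 0.54), *Id2* (0.05), *Id3* (0.43), *Id4* (-0.27) and *Junb* (0.61). The median log2FC of the targets was 0.40, against 0.05 for the ligands, 0.03 for the receptors, 0.13 for extracellular activation and antagonism, -0.18 for regulators and -0.19 for partners. These medians were not corrected for GC content. Over all genes the median log2FC ran from -0.30 in the decile of lowest GC to 0.22 in that of highest GC. The part of GC content in the medians by role was not tested. Of 5 genes of the branch that does not use Smads, *Mapk14*, the kinase p38-alpha, rose (log2FC 0.34) and *Tab2*, an adaptor of the kinase TAK1, fell (log2FC -0.35).

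**Figure D5:**
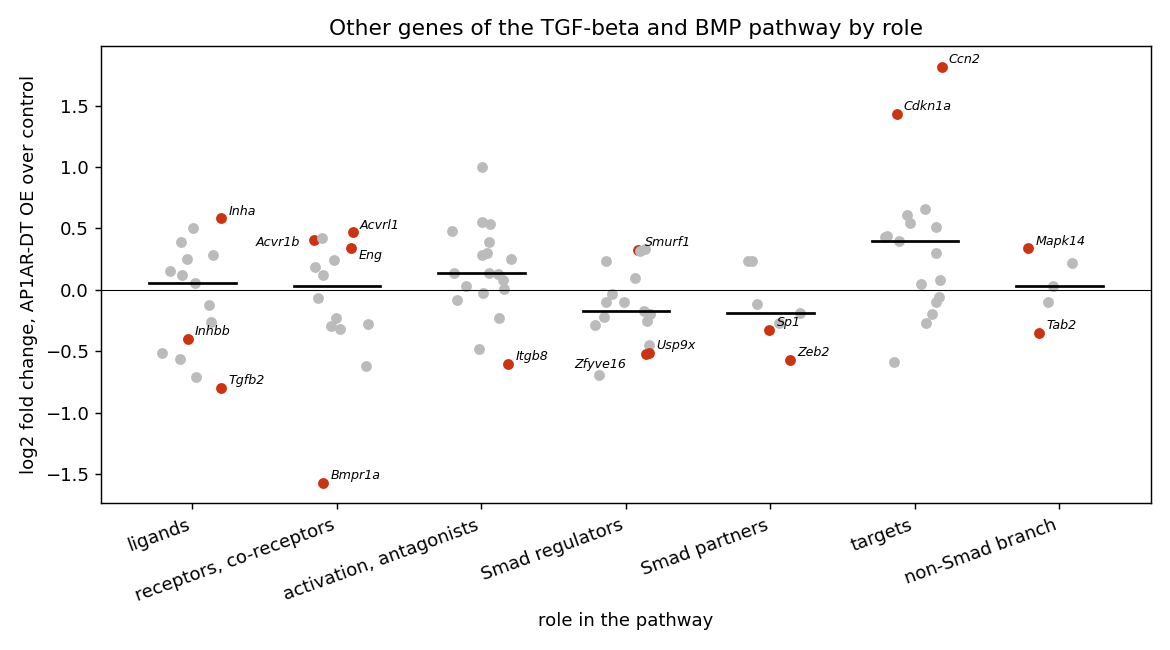
Log2FC (vertical axis) of the 94 tested genes of the pathway other than the 8 Smads, *Tgfbr1* and *Tgfbr2*, in 7 roles, with the 17 DEGs named in red, the rest in grey and a black line for the median of each role. *Ccn2* at 1.82 and *Bmpr1a* at -1.57 lie at the ends, and the targets have the highest median, 0.40, with no correction for GC content.

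GC content ran with the log2FC over all genes, from a median of -0.30 in the decile of lowest GC to 0.22 in that of highest GC. With each library corrected for the GC of longest transcripts, 6 of the 94 pathway genes were DEGs, and 5 of these were among the 17, namely *Ccn2*, *Cdkn1a*, *Inhbb*, *Itgb8* and *Tgfb2*. *Bmpr1a*, with 41.3% GC, had a corrected log2FC of -1.28 with an unadjusted edgeR P of 0.0613, and with the mean GC over transcripts -1.42 with 0.0399, where it was still a DEG. Without control 3, 17 pathway genes were DEGs, 13 higher and 4 lower, and 10 of them were among the original 17, which then lacked *Inhbb*, *Smurf1*, *Sp1*, *Tab2*, *Tgfb2*, *Zeb2* and *Zfyve16*. Without OE A 10 were DEGs and without OE B 8, of which 7 were among the 17. *Ccn2* and *Itgb8* were DEGs in every alternative tried.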

How the data were processed

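RNA-seq of brain tissue from 3 control and 3 *AP1AR-DT* OE mice was analysed. The authors mapped reads to GRCm38 with Bowtie2 and ran StringTie with the GENCODE annotation, per the study's methods, and deposited whole-number counts per gene, not normalized. The submitters' processing notes name TopHat2 2.0.4, SAMtools, HTSeq, Cuffdiff, edgeR 2.6.12 and mm9 instead. Which of these made the counts was not settled here. Bowtie2, unlike TopHat2, does not split reads at introns. Strand use is not given in the sources used here, so antisense reads cannot be separated. The table's own mean, fold change, standard error, Wald statistic and P columns were not used. Groups came from the labels.

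Counts were fitted in R 4.3.3 with edgeR 4.0.16 (filterByExpr, TMM factors of 0.968 to 1.03, quasi-likelihood test, two-sided, 2 groups, Benjamini-Hochberg adjustment over 21844 genes). DEGs had P under 0.05 and an absolute log2FC above 0.32. CPM are normalized by TMM. P-values set the difference between groups against the spread between these mice, with each gene's spread drawn towards that of the other genes. The common biological coefficient of variation was 0.313. Libraries differed by a chi-square of at least 44.7 per gene, so none was counted as a duplicate. Spread and likeness used log2(CPM + 0.5). Coordinates, transcript lengths and GC content are from GENCODE vM21 on GRCm38, and coordinates in the table were not used. GC correction used a spline with 5 degrees of freedom per library as an offset. The named genes are the 8 Smads and 2 receptors, the pathway DEGs, and the 5 genes most like *Smad3*. Other pathway and marker genes named were chosen after their values were seen. The 10 genes and all gene lists were chosen with earlier results of these data known. Alternatives were DESeq2 1.42.0, its size factors, library totals without TMM, no filter, at least 10 counts in every library, GC correction and leaving out each mouse. The mean GC content over transcripts was added after the data were seen.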

Additional observations from a re-analysis of the deposited data

How the results depend on the processing

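Leaving out 1 mouse at a time gave 1430 to 3508 DEGs over all genes, against 2675 with all mice, and 8 to 23 in the pathway list, against 17. The lowest counts were without OE B (1430 and 8), and without OE A they were 1620 and 10. GC correction with the longest transcript gave 1575 DEGs over all genes and 6 in the pathway list. With the mean over transcripts, chosen after the data were seen, it gave 1551 and 8. DESeq2, its size factors, library totals without TMM, no filter and at least 10 counts kept both counts within 1.5 times. With the longest transcript, the log2FC of *Tgfbr1* was 0.08 and that of *Smad1* -0.0047, each on the other side of 0 from its value with no correction. Both *Smad2* and *Smad3* passed the DEG thresholds with DESeq2, with no filter, with at least 10 counts and without control 3. None of the 10 passed with the mean GC content or without control 2, OE A or OE B. Of the 10 genes, *Smad3* had a log2FC above 0, and *Smad2* and *Smad9* below 0, under all 13 alternatives. No paired analysis was possible because the control mice are numbered 1 to 3 and the overexpressing mice 3 to 5 in the labels, and the table's columns number the latter otherwise. *Smad6* had 71 to 264 counts and a log2 SD within groups of 0.634. With 3 mice per group, the 95% interval of its log2FC was -1.24 to 1.07. A difference in *Smad6* as large as these limits may have gone undetected.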
